A study of Gallus gallus with 6 samples.

Results

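Chicken chromosome 16 is the microchromosome that carries the major histocompatibility complex (MHC). The deposited count table lists 145 genes whose first exon entry is on chromosome 16, out of 24356 in all. The 44 described here had at least 10 counts in 3 or more of the 6 libraries. They are numbered 1 to 44 by start position on chromosome 16 of the galGal6 build. The libraries were made from poly(A) RNA of single dorsal neural folds, taken from Leghorn White chicken (Gallus gallus) embryos at Hamburger-Hamilton stage 9. The control group (labelled WT, n = 3) is the side that received the GTBlue-Control morpholino, and the other group (labelled TGFB1 knockdown, n = 3) is the opposite side, with a morpholino against TGFB1, each at 1 mM. Both groups were therefore injected and electroporated, and no fold without a morpholino is part of the comparison. Morpholinos are synthetic antisense molecules that hinder the translation or splicing of the RNA they pair with. TGFB1 is a secreted growth factor of the transforming growth factor beta family.

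The chicken MHC is small and compact. Its B region holds class I and class II genes, whose products present peptides to T cells, the TAP transporter and tapasin genes that serve peptide loading, BG genes of the butyrophilin-like family, C-type lectin-like and TRIM genes. A second MHC-like region, MHC-Y, and the array of ribosomal RNA genes lie on the same chromosome. Many of these genes exist as similar copies and differ between haplotypes. The files pair none of the 24356 Ensembl IDs with a symbol, and 0 of them matched the RefSeq table at hand. Which of the 44 genes is a class I, class II, BG or TRIM gene is therefore not stated here. For the same reason the neural crest label was not checked against marker genes, and the counts of TGFB1 itself were not looked up.

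The 6 libraries held between 5350165 and 12256492 counted reads, and the 44 genes together between 25171 and 57559. Mitochondrial genes took 11.9% of the counts in the TGFB1 morpholino library of pair 1, against 3.59% to 7.2% in the other 5. That library also stood furthest from its group by chi-square per degree of freedom. This was taken over tested genes with enough counts in the libraries compared, mitochondrial genes included, and also depends on depth. The value was 61.1 against the TGFB1 morpholino library of pair 2 and 65.0 against that of pair 3. Between those of pairs 2 and 3 it was 14.75, and between control libraries 12.4 to 16.7. Of the 101 chromosome 16 genes below the count minimum, 48 had no count in any library. Gene 19 was just inside the minimum, with counts of 10, 12 and 6 in the control libraries of pairs 1, 2 and 3 and 10, 9 and 5 in their TGFB1 morpholino libraries. The gene from 1729257 was just outside, with 18, 10 and 3 counts against 3, 9 and 3. Copies that share sequence may have shared or lost reads in the authors' counting, so levels in multigene families are uncertain.

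Most of the 44 genes were expressed at low to moderate levels. Levels are given as CPM (read counts relative to the TMM-scaled library size), and per kb of exon where genes are compared with each other. Of the 44, 21 had a mean of 1 to 10 CPM, 19 of 10 to 100 CPM, and 4 of over 100 CPM. The median level of the 43 that passed the test's filter was 4.74 CPM per kb, against 11.8 CPM per kb over all 12736 genes tested, and 12 of the 44 lay above that value.

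A pair of genes held most of the reads. Gene 41 (minus strand, 2738933 to 2745467, 4 exons) took 51.4% of all counts of the 44. It stood at 2512, 2188 and 2657 CPM on the control side of pairs 1, 2 and 3, and at 2013, 1970.2 and 2238 CPM on the TGFB1 morpholino side. The TGFB1 morpholino value was the lower one in each pair, but the groups overlapped and the difference did not pass the test (log2 fold change -0.24, SE 0.17, adjusted p = 0.368 by edgeR). Per kb it had 1162 ± 114 CPM in the controls (SD, n = 3), which ranked 36 among all genes tested by its mean over both groups. Gene 26 (minus strand, 2525327 to 2529817, 8 exons) took 21.7%. Its level was 1085.5, 982 and 906 CPM on the control side and 916, 858 and 872 CPM on the other, again overlapping (log2 fold change -0.16, SE 0.15, adjusted p = 0.489).

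Gene 32 (minus strand, 2574359 to 2580734, 12 exons) came next, with 122.6 ± 5.51 CPM per kb in the controls and 163 ± 3.19 CPM per kb with the TGFB1 morpholino (SD, n = 3). In CPM it went from 355, 381 and 386 to 506, 487 and 499.9 in pairs 1, 2 and 3. The groups did not overlap, yet the change (log2 0.41, SE 0.13) missed the threshold in edgeR with an adjusted p = 0.0539. It passed in DESeq2 (adjusted p = 0.0303), in limma-voom (0.0493) and with a filter of 1 CPM in all 6 libraries (0.0462). In edgeR it did not pass without pair 1 (adjusted p = 0.0629), pair 2 (0.336) or pair 3 (0.115). Nor did it pass in edgeR with no replicate block (0.101) or with no filter on low counts (0.0745). Gene 13 followed at 33.1 ± 9.30 and 65.3 ± 8.13 CPM per kb, and gene 36 (minus strand, 2606528 to 2609057) at 26.1 ± 2.95 and 29.0 ± 4.59 CPM per kb (SD, n = 3). Between genes 41, 26, 32 and 13 each step in level was larger than the spread over libraries. Genes 13 and 36 were not apart on the control side.

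**Figure D1:**
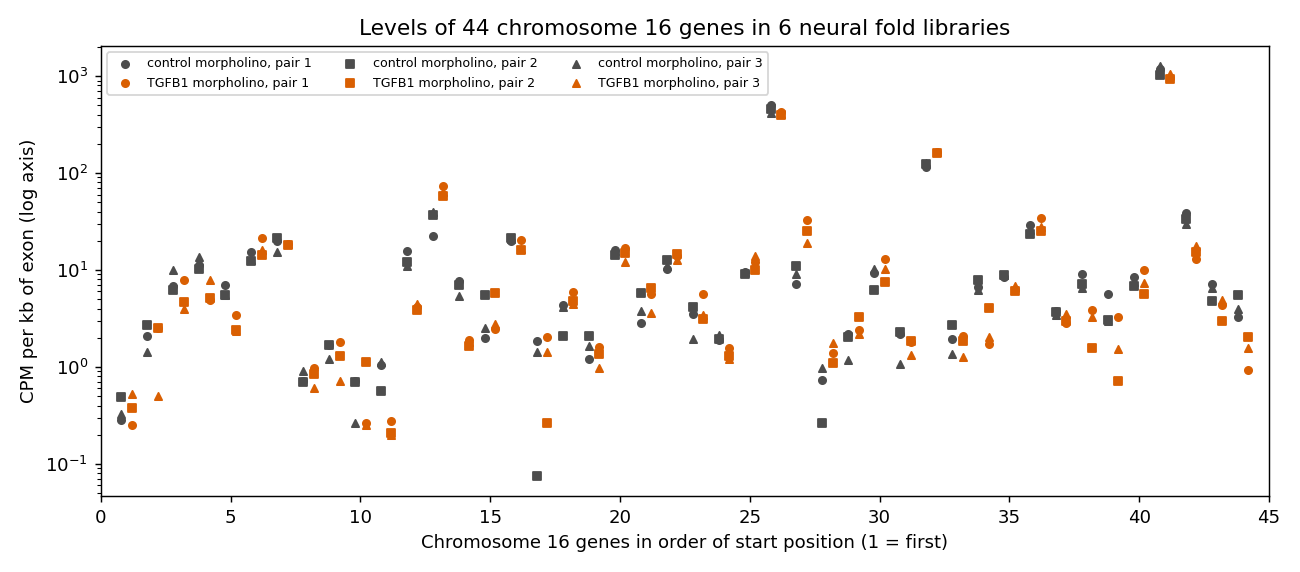
CPM per kb of exon (log axis) of the 44 chromosome 16 genes in order of start position, with grey symbols for the 3 control morpholino libraries and orange for the 3 TGFB1 morpholino libraries. Genes 41, 26 and 32 stand above the rest in all 6 libraries, and gene 17 has its lowest values in both libraries of pair 2.

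The comparison of the sides asks which chromosome 16 transcripts differ between the TGFB1 morpholino side and the control side of the same embryo. Of the 43 genes tested, 11 were lower and 2 were higher on the TGFB1 morpholino side at a false discovery rate of 0.05 over all genes (quasi-likelihood test of edgeR, pairs as blocks). Over all 12736 genes tested, 8.81% were lower and 7.15% were higher. Chromosome 16 thus had 25.6% of its tested genes lower, above the background, and 4.65% higher, near it. No test of this difference in shares was made. The fitted log2 fold change was negative for 26 of the 43 genes (60.5%, against 49.7% over all genes), with a median of -0.16 against 0.0032.

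This median did not have the same sign in each pair. Within pairs 1, 2 and 3 it was 0.055, -0.27 and -0.074, against 0.0060, -0.0046 and 0.0098 over all genes tested. The 11 lower genes had a median log2 fold change of -1.42, and the 30 that did not pass had one of -0.0078. In CPM the groups did not overlap for 17 of the 43 genes tested (28.7% of all genes tested did not overlap), among them 11 of the 13 that passed. In bulk RNA, fewer cells of a type and less RNA per cell cannot be told apart. With no replicate block 6 of 43 chromosome 16 genes were lower, against 3.35% of all genes tested. Without pair 2 it was 8 of 42, against 5.25%.

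By way of comparison, chromosome 25, a microchromosome with the epidermal differentiation complex, had 36 of 189 tested genes lower (19.0%) and 26 higher (13.8%). Chromosome 31 had 14 of 43 lower (32.6%) and 6 higher (14.0%). The median log2 fold change of these chromosomes was -0.046 and 0.0057. The lower quartile of the fitted changes stood at log2 -0.57 for chromosome 16, at -0.80 for chromosome 31, at -0.43 for chromosome 25 and at -0.27 over all genes.

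**Figure D2:**
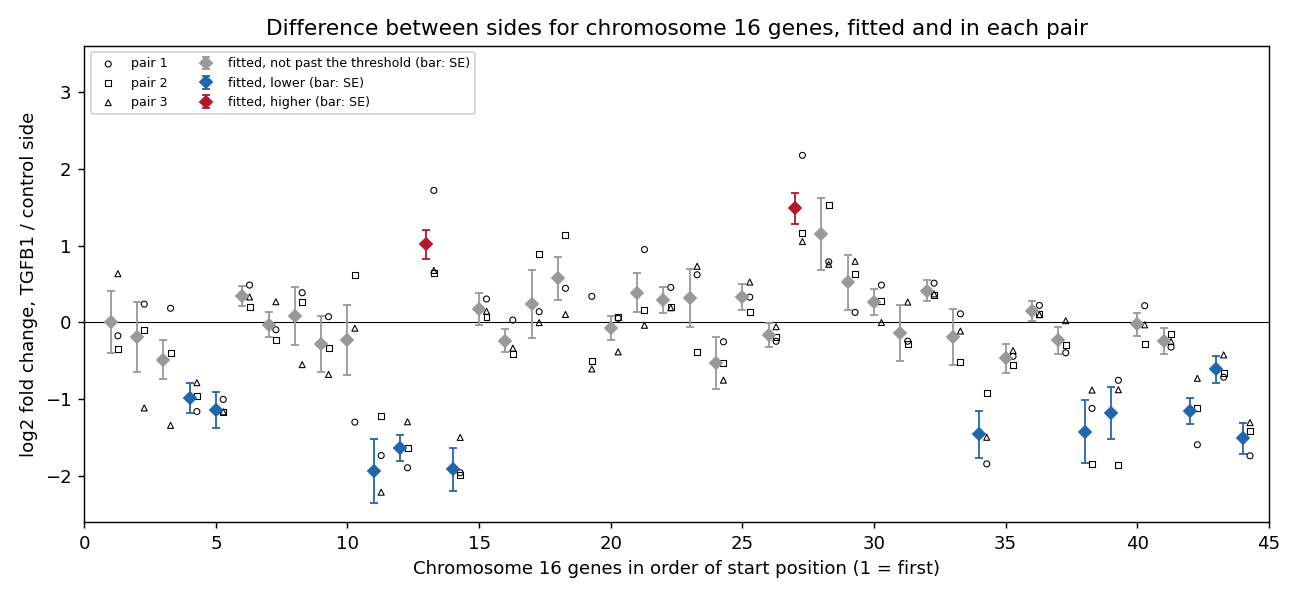
Log2 fold change (TGFB1 over control morpholino side) of the chromosome 16 genes in order of start position: diamonds are the fitted values with their SE, coloured where they passed the threshold, and open symbols are the 3 pairs. Of the 11 lower genes 9 lie next to another lower gene and genes 14 and 34 do not, while higher gene 13 lies between lower genes 12 and 14, and higher gene 27 has no called neighbour.

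**Figure D3:**
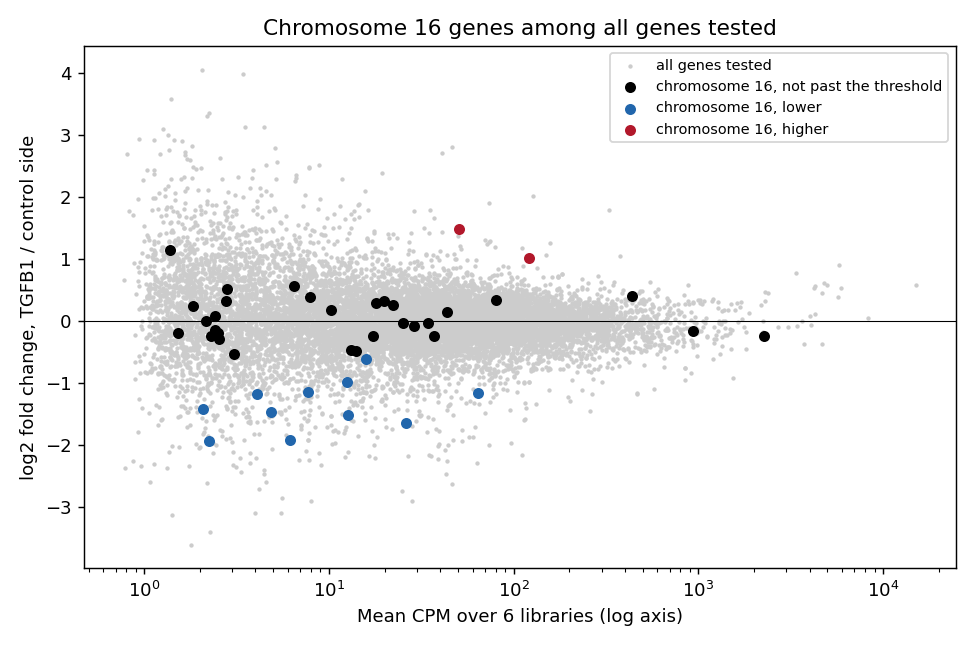
Fitted log2 fold change against mean CPM (log axis) for all 12736 genes tested in grey and the 43 chromosome 16 genes in colour or black. The 11 lower genes lie between -1.93 and -0.61 and reach from 2.08 to 64.3 mean CPM.

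The 3 lowest fitted fold changes of the 43 genes tested lay in a stretch from 2143943 to 2270522. It holds genes 11 to 14, of which 3 were lower and 1 was higher, and also annotated genes below the count minimum. Whether the changes cluster there was not tested. Gene 12 (ENSGALG00000052089.1, minus strand, 2164590 to 2178726, 7 exons) had the smallest p on the chromosome. In pairs 1, 2 and 3 its level was 47.6, 37.3 and 33.9 CPM with the control morpholino and 12.7, 11.9 and 13.7 CPM with the TGFB1 morpholino. The groups lay far apart, and the TGFB1 morpholino libraries were within 2 CPM of each other. It fell 3.10-fold (log2 fold change -1.63, SE 0.17, adjusted p = 6.62e-05 by edgeR).

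Gene 13 (ENSGALG00000049360.1, 2172921 to 2270522, 12 exons) overlaps the span of gene 12 on the same strand, but shares no exon base with it. It moved the other way, from 55.6, 91.8 and 98.2 CPM to 183, 143.9 and 157 CPM. All 3 TGFB1 morpholino libraries were above all controls. Its rise was 2.02-fold (log2 fold change 1.02, SE 0.19, adjusted p = 0.00344 by edgeR), larger in pair 1 (log2 1.72) than in pairs 2 and 3 (0.65 and 0.68). Without pair 1, which holds the library with the most mitochondrial counts, the log2 fold change was 0.66 (adjusted p = 1.81e-04 by edgeR). With so few libraries this p leans on the spread shared across genes, and it is not stronger evidence than that of all 3 pairs.

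Gene 14 (plus strand, 2186410 to 2193642, 3 exons) lies within the span of gene 13 on the opposite strand, also without a shared exon base. It stood at 11.2, 10.1 and 7.78 CPM in the controls and at 2.73, 2.37 and 2.61 CPM on the TGFB1 morpholino side. The groups did not overlap, and it fell 3.77-fold (log2 fold change -1.91, SE 0.27, adjusted p = 6.48e-04 by edgeR). Gene 11 (minus strand, 2143943 to 2162007, 3 exons) had the largest fitted decrease of the 44 at a low level, from 4.16, 2.23 and 4.45 CPM to 1.09, 0.83 and 0.78 CPM (log2 fold change -1.93, SE 0.41, adjusted p = 0.00753). Its libraries on the TGFB1 morpholino side held 10, 8 and 6 counts, so the size of this fall is imprecise. As no source gives the strand setting used in counting, reads from any unannotated transcript over these exons could not be told apart.

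Gene 27 (ENSGALG00000052240.1, plus strand, 2529852 to 2544064, 40 exons) had the largest increase past the threshold. In the controls of pairs 1, 2 and 3 its level was 20.9, 32.2 and 26.5 CPM, and their TGFB1 morpholino sides had 95.4, 72.6 and 55.3 CPM. It was higher in 3 of 3 pairs, by log2 2.18, 1.17 and 1.05, with no overlap between the groups. The rise was 2.80-fold (log2 fold change 1.49, SE 0.20, adjusted p = 4.08e-04 by edgeR), and log2 1.12 without pair 1. It starts 34 bases beyond gene 26, the second most abundant gene, which lies on the other strand, so that both are annotated as running away from each other. Gene 26 went the other way in each pair, by log2 -0.24, -0.19 and -0.055, and did not pass. Gene 25 (plus strand, 2520198 to 2524870), on the far side of gene 26, differed by 0.33 on the log2 scale (SE 0.17, adjusted p = 0.189). Gene 28 (plus strand, 2562353 to 2565190), the next after gene 27, had 1.15 (SE 0.47, adjusted p = 0.115), from 0.88 ± 0.48 to 1.88 ± 0.45 CPM (SD, n = 3).

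The last 3 genes of the chromosome's 44 were all lower. Gene 42 (plus strand, 2763003 to 2769392, 3 exons) was the most abundant of the 11 genes that fell. It went from 101.4, 87.0 and 77.1 CPM to 33.5, 40.2 and 46.5 CPM, with no overlap, which is a 2.22-fold decrease (log2 fold change -1.15, SE 0.16, adjusted p = 6.37e-04 by edgeR). The control value was highest and the TGFB1 morpholino value lowest in pair 1, where the difference was log2 -1.59, against -1.11 and -0.73 in pairs 2 and 3. Without pair 1 the fitted log2 fold change was -0.93. Gene 44 (ENSGALG00000048814.1, plus strand, 2798256 to 2810821, 5 exons) stood at 14.3, 24.2 and 17.4 CPM in the controls and at 4.15, 8.98 and 6.92 CPM on the other side. Pair 2 was the highest on both sides, and the groups did not overlap. The fall was 2.84-fold (log2 fold change -1.51, SE 0.20, adjusted p = 4.41e-04).

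Gene 43 (minus strand, 2788934 to 2795938, 2 exons), between them, changed least of the genes that passed. Its levels of 22.3, 14.7 and 20.2 CPM in the controls and 13.5, 9.19 and 15.0 CPM on the TGFB1 morpholino side overlapped between embryos, while each pair went down. On the log2 scale the change was -0.61 (SE 0.18, adjusted p = 0.0352 by edgeR). It did not pass without pair 1 (adjusted p = 0.0624), without pair 2 (0.195), with no replicate block (0.187) or in DESeq2 (0.105). A gene from 2785845, tested but under the count minimum of the 44, lies just before it. With 15, 15 and 7 counts against 2, 4 and 5 it was lower too (log2 fold change -1.78, SE 0.56, adjusted p = 0.0486), and with it 12 of 44 chromosome 16 genes tested were lower.

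A pair of single-exon genes near the start of the list fell side by side. Genes 4 (626758 to 628182) and 5 (628316 to 630076) lie on the plus strand, 133 bases apart. Gene 4 stood at 15.9, 14.4 and 19.3 CPM in the controls and at 6.99, 7.33 and 11.1 CPM on the TGFB1 morpholino side. Gene 5 stood at 12.5, 9.74 and 9.64 CPM against 6.11, 4.23 and 4.18 CPM. For both genes every TGFB1 morpholino library was below every control. They fell 1.98-fold (log2 fold change -0.99, SE 0.20, adjusted p = 0.00539 by edgeR) and 2.20-fold (log2 fold change -1.14, SE 0.23, adjusted p = 0.00622). With no replicate block gene 4 had an adjusted p = 0.0527. Gene 6 (plus strand, 633344 to 641956), the next one and the most abundant of the first 6 per kb, differed by 0.34 on the log2 scale (SE 0.13, adjusted p = 0.0918).

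The other 3 lower genes lie between 2592345 and 2630699, all on the plus strand and all at under 5 mean CPM. Gene 34 (2592345 to 2605843, 7 exons) went from 6.84, 7.98 and 6.30 CPM to 1.75, 4.13 and 2.09 CPM, with no overlap (log2 fold change -1.46, SE 0.31, adjusted p = 0.00746 by edgeR, 0.0584 with no replicate block). It shares 18 exon bases with 1 other gene on its strand and is the only one of the 13 that shares any. Gene 38 (2624745 to 2626354, 4 exons) went from 3.58, 2.82 and 2.59 CPM to 1.53, 0.62 and 1.31 CPM (log2 fold change -1.42, SE 0.41, adjusted p = 0.0351). Gene 39 (2626854 to 2630699, 10 exons) went from 8.07, 4.34 and 4.26 CPM to 4.69, 1.03 and 2.22 CPM, so that pair 1 was highest on both sides and the groups overlapped (log2 fold change -1.17, SE 0.34, adjusted p = 0.0338). Genes 38 and 39 lie 499 bases apart, and both had their largest difference in pair 2 (log2 -1.85 and -1.86). Without pair 2 neither passed, with adjusted p = 0.270 and 0.279, and neither passed with no replicate block (0.0960 and 0.244) or in DESeq2 (0.142 and 0.0867).

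**Figure D4:**
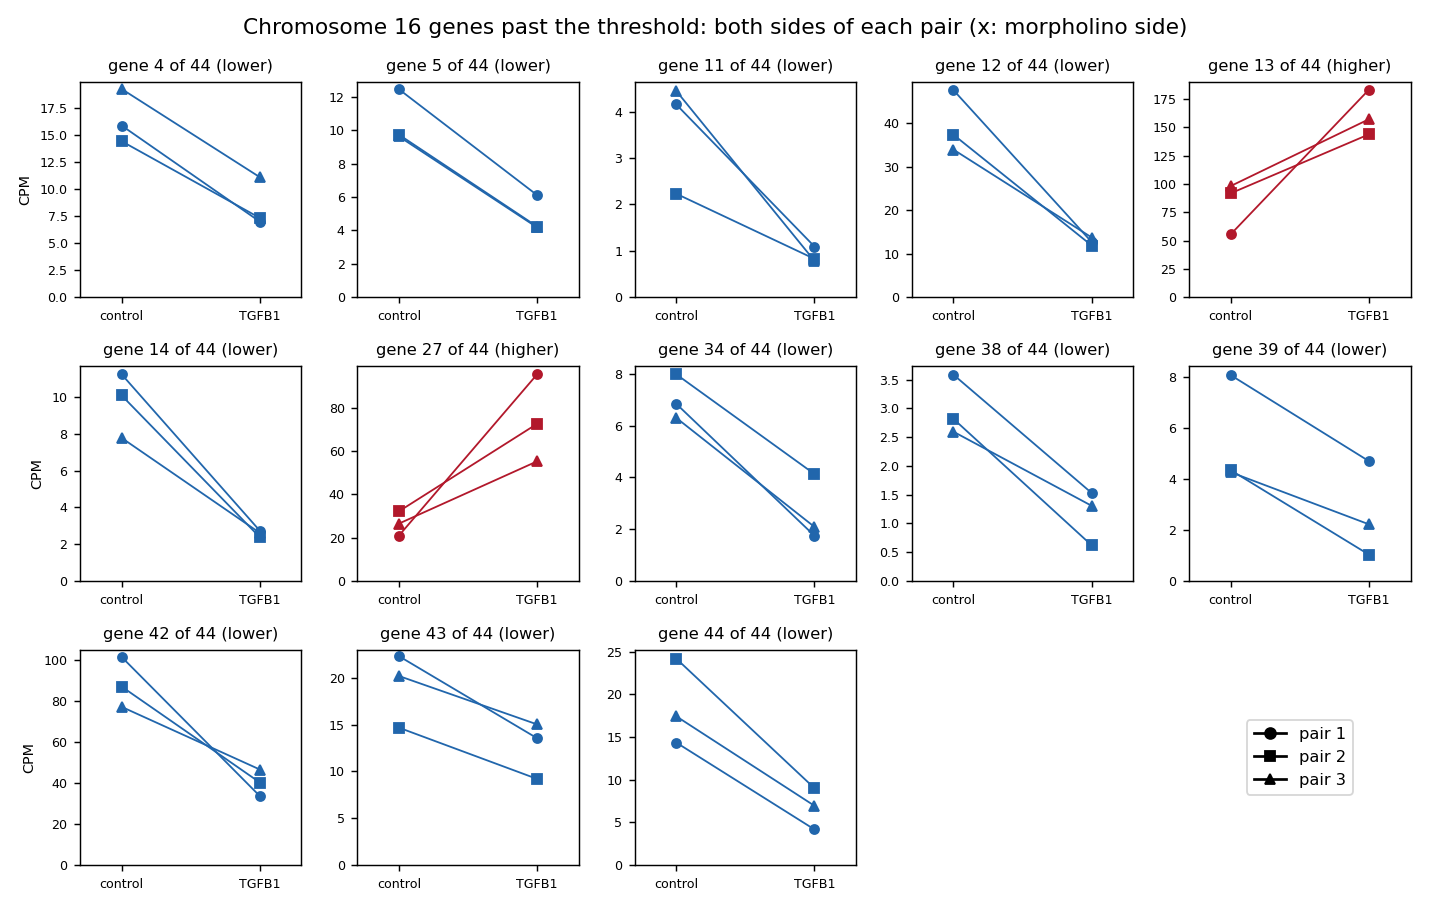
CPM on the control and the TGFB1 morpholino side of each pair, with lines joining both sides of a pair, for the 13 chromosome 16 genes past the threshold (blue lower, red higher). All lines of a gene go the same way, and the groups overlap only for genes 39 and 43.

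Along the chromosome, the tested genes were cut into windows of 250 kb from the start of gene 1. The window from 2001635 to 2251634 held 4 genes with 3 lower and 1 higher, and a median log2 fold change of -1.77. The last window, from 2751635, held 3 genes, all lower, with a median of -1.15. Between them lay a window from 2251635 to 2501634 with 9 tested genes, 0 of them past the threshold in edgeR, and a median of 0.25. There were also 0 in DESeq2 and limma-voom, and 0 at an unadjusted p under 0.05 in each of the 3 tools. In edgeR 3941 of all 12736 genes tested were under that value, and 17 of the 43 on chromosome 16. Whether so short a stretch differs from other genes was not tested. The window from 2501635 to 2751634 was the fullest, with 17 genes, 3 lower and 1 higher, and a median of -0.14. In the first window 2 of 6 genes were lower. Genes 7 to 10, between 1750463 and 1929106, gave 0 past the threshold in edgeR, DESeq2 and limma-voom, again with 0 at an unadjusted p under 0.05, and had fitted values from -0.28 to 0.084. No chromosome 16 gene with enough counts lay in the 1108.5 kb between genes 6 and 7.

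The genes past the threshold lay on both strands and had means from 2.08 to 121.7 CPM. The most abundant ones, genes 41, 26 and 32, did not pass. Of the 25 tested genes on the plus strand 8 were lower and 1 higher, and of the 18 on the minus strand 3 were lower and 1 higher. Of the 32 tested genes whose exons overlap no other annotated gene 10 were lower and 2 higher, and of the 11 with an overlap 1 was lower. Those with an overlap were at a lower level, with a median of 2.55 CPM against 16.5 CPM, so overlap and level cannot be told apart here. The lower genes had a median of 4.74 CPM per kb, the same as the tested chromosome 16 genes together, and the genes that did not pass had 4.50 CPM per kb. In mean CPM, not scaled by length, the medians were 7.73 for the lower genes and 11.7 for those that did not pass. By level, 7 of the 27 genes at 5 mean CPM or more were lower and 2 higher, as were 4 and 0 of the 16 below that mean.

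Among the 44, the levels of gene 12 were most like those of genes 14, 42 and 35, with Pearson's r of 0.99, 0.98 and 0.95 of log2 CPM over the 6 libraries. Those of gene 27 were most like genes 32, 13 and 22, with 0.95, 0.93 and 0.90. Genes 12 and 27 were taken for their smallest p between sides, and the 6 libraries share the side and the pair. Genes with like differences between sides score high in this measure, whether or not they pass the threshold. Genes 14, 42 and 13 passed it, and genes 35, 32 and 22 did not. What links these genes was not tested. Gene 35 (minus strand, 2596216 to 2601012) was at 15.2 ± 0.45 CPM in the controls and 11.1 ± 0.72 CPM with the TGFB1 morpholino (SD, n = 3), without overlap, and did not pass (log2 fold change -0.46, SE 0.19, adjusted p = 0.111 by edgeR).

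Differences between the numbered pairs, each taken as 1 embryo, passed the test in 2 genes. These lie close together and did not pass between sides. Gene 15 (plus strand, 2272154 to 2410307, 30 exons) had the widest range among control libraries of the genes with at least 5 mean CPM. It stood at 5.78, 16.1 and 7.41 CPM in the controls of pairs 1, 2 and 3 and at 7.21, 16.9 and 8.23 CPM in their TGFB1 morpholino libraries. Both sides of pair 2 were above all other libraries. Its sides differed by log2 0.17 (SE 0.21, adjusted p = 0.607 by edgeR), and between embryos it differed with an adjusted p = 0.0159. Gene 17 (plus strand, 2341445 to 2347657, 15 exons), which lies within the span of gene 15 and was picked out after its values were seen, had the opposite order. It held 1 and 4 counts on the sides of pair 2, against 35 and 29 in pair 1 and 12 and 17 in pair 3. Both sides of pair 2 were lowest, and the embryos differed with an adjusted p = 0.0232. Its sides differed by log2 0.25 (SE 0.44, adjusted p = 0.745).

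These were the only 2 of the 43 chromosome 16 genes past a false discovery rate of 0.05 for the embryo term (4.65%), near the 3.10% of all genes tested. The range of the 3 embryo means had a median of 0.50 on the log2 scale over the 43 genes and of 0.37 over all genes tested, whose median level is higher (27.5 against 12.5 CPM). Neither gene that differed between embryos was among the 13 that differed between sides.

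Together the chromosome 16 genes described here gave a small part of the counted poly(A) reads in each library. The 44 genes took 0.470%, 0.430% and 0.470% of all counts in the controls of pairs 1, 2 and 3, and 0.433%, 0.402% and 0.420% with the TGFB1 morpholino. The mean was 0.457 ± 0.023% against 0.418 ± 0.016% (SD, n = 3), lower in 3 of 3 pairs. A two-sided exact permutation test that flips the sign of each pair gave p = 0.25, and 3 pairs can give no smaller p. With mitochondrial counts left out of the total the mean difference went from -0.038 to -0.023 percentage points, and in pair 1 it was -0.0015. Without genes 26 and 41 the other 42 genes took 0.111 ± 0.0011% in the controls and 0.124 ± 0.011% with the TGFB1 morpholino, higher in 3 of 3 pairs (exact p = 0.25). The total therefore follows the 2 most abundant genes and does not describe the other 42. Nor does the sum of the other 42 describe most of them. The means of genes 32, 13 and 27 went from 374, 81.9 and 26.5 CPM to 498, 161.5 and 74.4 CPM, though gene 32 did not pass the threshold. The fitted change was negative for 26 of the 43 genes tested.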

How the data were processed

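The genotype label gave the groups and the titles gave the pair numbers. The authors deposited raw counts of reads per gene, in whole numbers. The submitters' processing notes name cutadapt, HISAT2, featureCounts and galGal6, with no version, annotation or strand setting named in any source at hand. Chromosomes, starts, ends, strands and exon lengths are those of the deposited table. No column was left without a sample. Coordinates count from 1.

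The whole table was fitted in R 4.3.3 with edgeR 4.0.16 (filterByExpr, TMM, quasi-likelihood F test, pair number as a block, Benjamini-Hochberg adjustment over 12736 genes). The treatment protocol takes both sides of 1 embryo, and the titles number the libraries in each group. That the same number marks the same embryo was inferred from this. Deviations of same-numbered libraries from their group means correlated at 0.49, 0.52 and 0.36, and no value for differently numbered libraries is given here. P-values for the sides thus set a difference against its spread over the 3 pairs, with information shared across genes. In the fit of all 6 libraries the shared part had a mean weight of 10.99 prior degrees of freedom, so the spread used is not that of the gene alone. Of the 44 genes, 43 passed the filter. Standard errors are the log2 fold change over the root of F. Differences within pairs use log2 CPM with a prior count of 2. Alternatives used DESeq2 1.42.0 and limma 3.58.1, and the fit was tested on simulated data. Differences between embryos were tested by the pair term of the same fit. Each embryo gave only its 2 sides, so this term sets embryos against the spread within them. A batch that follows the pair number could not be told apart from the embryo.

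Named genes are all 13 past the threshold, the 5 with the highest level per kb, the one with the widest control range at 5 mean CPM or more, the 3 most like each of genes 12 and 27, and, outside this rule, gene 19 at the count minimum, gene 17 and neighbours of named genes. The gene list, members and comparisons were chosen with earlier results of these data known. Gene lists by symbol were not analysed here.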

Additional observations from a re-analysis of the deposited data

How the results depend on the processing

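The count of 11 lower genes was 6 with no replicate block, all among the 11, and 8 to 11 when each pair was left out in turn. The share of all genes tested that were lower moved too, from 8.81% to 3.35% with no replicate block and to 10.4%, 5.25% and 7.58% without pairs 1, 2 and 3. The count of lower genes was 8 to 12 in the other alternatives. There 6.85% (DESeq2) to 12.5% (threshold at 0.1) of all genes tested were lower. The count of 2 higher genes was 2 to 3, and 4 with the threshold at 0.1. Of all genes tested 2.12% to 7.73% were higher, and 11.2% with the threshold at 0.1. The members' median log2 fold change ran from -0.20 to -0.074, the latter with the scaffold's genes added, and was -0.091 without pair 2. The share of counts fell by 0.032 to 0.043 percentage points without each pair. For the genes left without the 2 most abundant, the share rose by 0.014 percentage points. Of 206 values for 19 named genes under the alternatives, 12 lost the call and 4 gained it, and 0 changed sign. The cause was not tested. The scaffold, all rows tested, the share without 2 genes and the embryo term were chosen after seeing the data. At this depth genes of 1 to 5 CPM rest on few counts per library.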

Other observations

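A scaffold that galGal6 assigns to chromosome 16 without a place on it carries 13 annotated genes, of which 4 had at least 10 counts in 3 or more libraries. All 4 had a positive log2 fold change, from 0.23 to 0.97. At a false discovery rate of 0.05, 0 passed edgeR's test, nor did any in DESeq2 or limma-voom. In edgeR 1 had an unadjusted p under 0.05, as had 3941 of all 12736 genes tested. The one with the largest value held 12, 9 and 7 counts on the control side of pairs 1, 2 and 3 and 20, 22 and 15 counts on the TGFB1 morpholino side (log2 fold change 0.97, SE 0.43, adjusted p = 0.140). Of the other 9 genes, 6 had no count in any library.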
